A study of Mus musculus with 5 samples.

Results

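Transcripts of the integrin subunits, laminin chains and nidogens were compared between mouse mesenchymal stem cells that lacked TSG-6 and wild-type cells. The group was chosen by symbol, with earlier results of these data known. A naming rule took integrin alpha and beta subunits, laminin alpha, beta and gamma chains, and nidogens of the deposited table. It did not match Itga2b, an integrin alpha subunit that had values, so the sums and pairs of subunits below leave Itga2b out. The rule gave 24 of 12621 genes, namely 16 integrin subunits, 6 laminin chains and 2 nidogens. The same naming rule matches 37 genes of the mouse annotation, and the other 13 (among them Itga2, Itga4, Itga8, Itga10, Itgae, Itgam, Itgax, Itgb6, Lama1, Lama2, Lama3 and Lamb3) were not analysed here.

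The knockout (KO) cells lacked TSG-6, a secreted hyaluronan-binding protein encoded by Tnfaip6, and were represented by 3 libraries named C1, C2 and SE. The wild-type (WT) cells were represented by 2 libraries named C1 and SE. Both genotypes carried the strain label Balb/c (C.129S6), and the meaning of C and SE is not stated in the labels. The labels give no tissue of origin, age, passage or construct, nor whether the libraries of a genotype stem from different animals or cultures. The p-values therefore reflect variation among the 5 libraries alone, which may be technical. The design text speaks of 2 biological replicates for each cell type, whereas the table holds 3 KO columns.

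Levels below are normalised counts on the CPM scale. Recovered library sizes lay between 13605555 and 26658725 reads. Library profiles (log2) correlated at 0.946 to 0.982 within a genotype and at 0.753 to 0.81 between genotypes (Pearson's r across genes, which are not independent replicates), and the second principal component, with 14.7% of the variance, parted the SE libraries from the C libraries in both genotypes. Tnfaip6 itself had 1.65, 2.38 and 1.36 normalised counts in the KO libraries and 6.04 and 3.21 in the WT libraries (log2 fold change -1.13 ± 0.37 standard error, adjusted p = 0.0578, limma). The labels do not say which exons were removed, so these reads do not check the genotype. Of 10 stromal cell markers, 8 had values. Of these, 1 rose and 3 fell in KO cells, against 17.2% of all genes tested higher and 17.1% lower. The summed level of the markers was 11803 to 18918 in KO libraries and 4270 to 5005 in WT libraries. This sum differed through the chemokine gene Cxcl12, at 8179 to 14071 in KO libraries and 115 to 120 in WT libraries. Ly6a (17.3 to 48.4 in KO libraries and 284 to 412 in WT libraries) and Cd44 (28.6 to 40.5 in KO libraries and 325 to 385 in WT libraries) fell. Nt5e, which encodes the mesenchymal stem cell surface marker CD73, fell too, at 0.358 to 0.946 in KO libraries and 77.4 to 121 in WT libraries, while Thy1 and Lepr were not analysed here. Since Nt5e passed the filter on low values through WT libraries only, it had to differ.

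Integrins are paired receptors, each of 1 alpha and 1 beta subunit, that hold cells to the extracellular matrix and couple it to the actin cytoskeleton. The alpha subunit largely sets the ligand: some bind collagen, some bind laminin, and some bind the tripeptide RGD of fibronectin and related proteins. Laminins are trimers of an alpha, a beta and a gamma chain and form the basic sheet of basement membranes, and nidogens bridge that sheet to the collagen IV network. Stromal cells of the bone marrow and other tissues make both the receptors and much of the matrix they bind.

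Several integrin subunits differed between genotypes, in both directions. Most laminin chains and nidogens did not pass the test, although Lamb2 and Nid2 did with the column suffix (C or SE) as a term in the fit. With that term, 60.6% of all genes tested passed. In the main fit, without that term, 6 of the 24 members rose and 5 fell in KO cells at an adjusted p below 0.05. This is 45.8% of members, against 34.3% of the 12484 genes tested. By direction the background was 17.2% of genes higher and 17.1% lower. The integrins held 10 of these calls among 16 subunits (6 higher, 4 lower), and the laminins and nidogens held 1 among 8. The median log2 fold change was 0.06 over the members and -0.09 over all genes tested, and the median absolute log2 fold change was 1.67 over the members and 0.71 over all genes. All KO libraries stood above all WT libraries for 8 members and below them for 6, and such separation of groups occurred for 58.8% of all genes tested (28% above, 30.7% below). Members were tested as part of the whole table with limma, and all 24 passed the filter on low values. Itga9, Itgal, Itgb3 and Itgb8 passed it through 1 genotype only and therefore had to differ. Over the 20 members that reached the filter value in both genotypes, 3 rose and 4 fell, or 35%, against 28.5% of the 11207 such genes, and the median absolute log2 fold change was 0.72, against 0.62 over those genes. The members' share of calls is thus near the background. Of the 12 integrin subunits among them, 3 rose and 3 fell. Without both SE libraries, 6 members were higher and 4 lower among 23 tested. Leaving out single libraries gave 3 to 7 members higher and 2 to 7 lower, with 3 higher without WT C1, 2 lower without WT SE and 3 lower without KO C2. The share of all genes called moved too, to 26.8% without KO C1, 22.2% without KO C2 and 40.4% without KO SE. In the fits that leave 1 WT library this share also differed from 34.3%. Member counts of the refits are therefore not to be read against 34.3%. In bulk RNA, fewer cells of a type and less RNA per cell cannot be told apart.

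**Figure D1:**
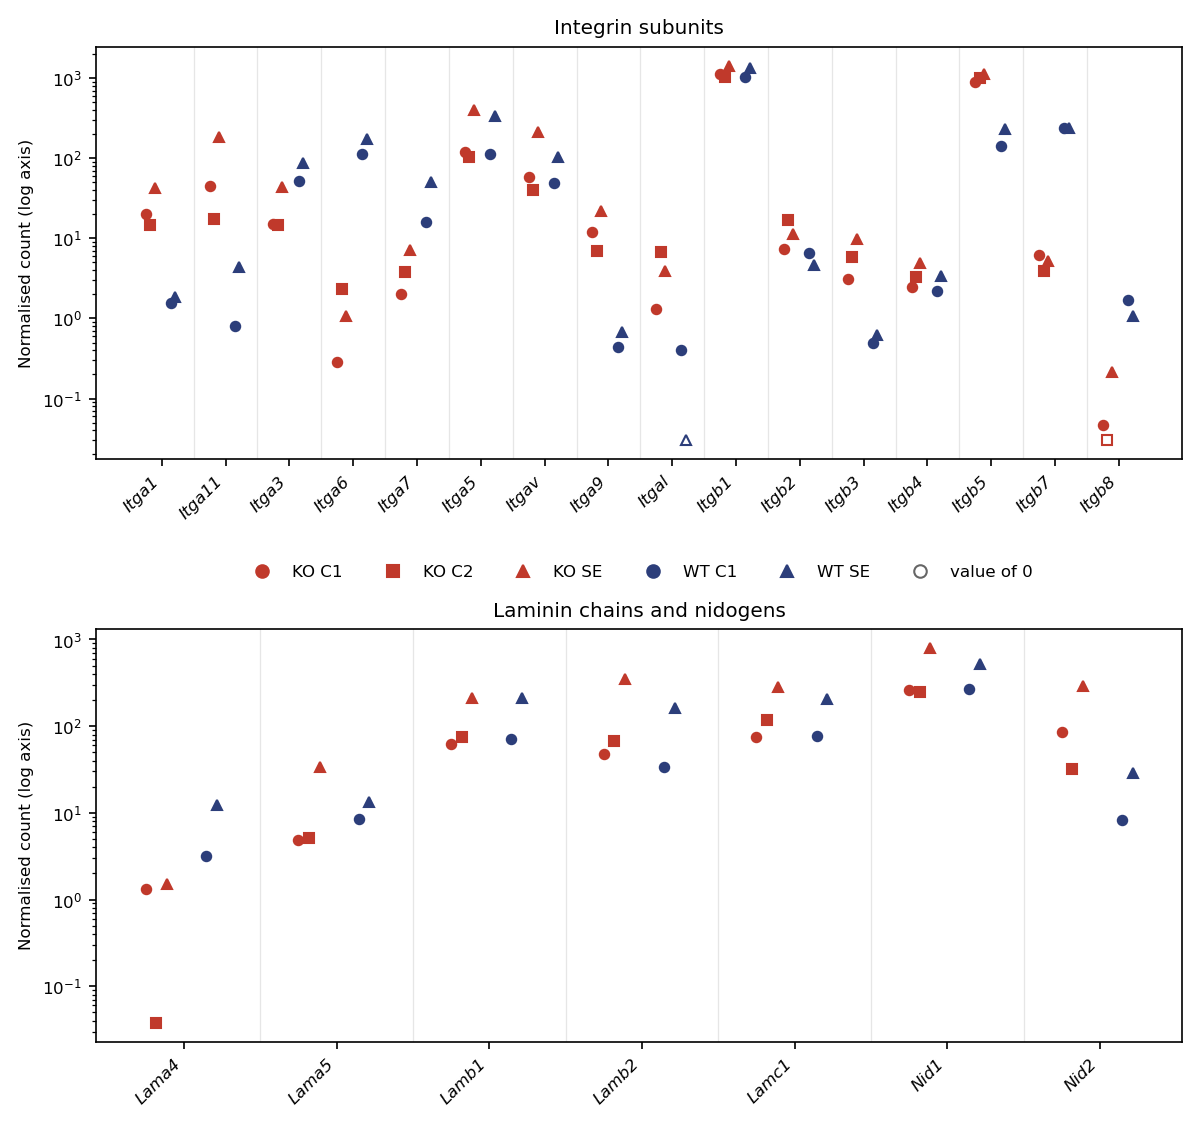
Normalised count of members in each library on a log axis, for integrin subunits (top) and laminin chains and nidogens (bottom). KO libraries are red and stand left of the blue WT libraries; circles are C1, squares C2 and triangles SE, and open symbols mark a value of 0. Itga6 and Itgb7 lie far lower in every KO library, and for most laminin chains and nidogens the triangles of both genotypes stand above the other symbols.

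**Figure D2:**
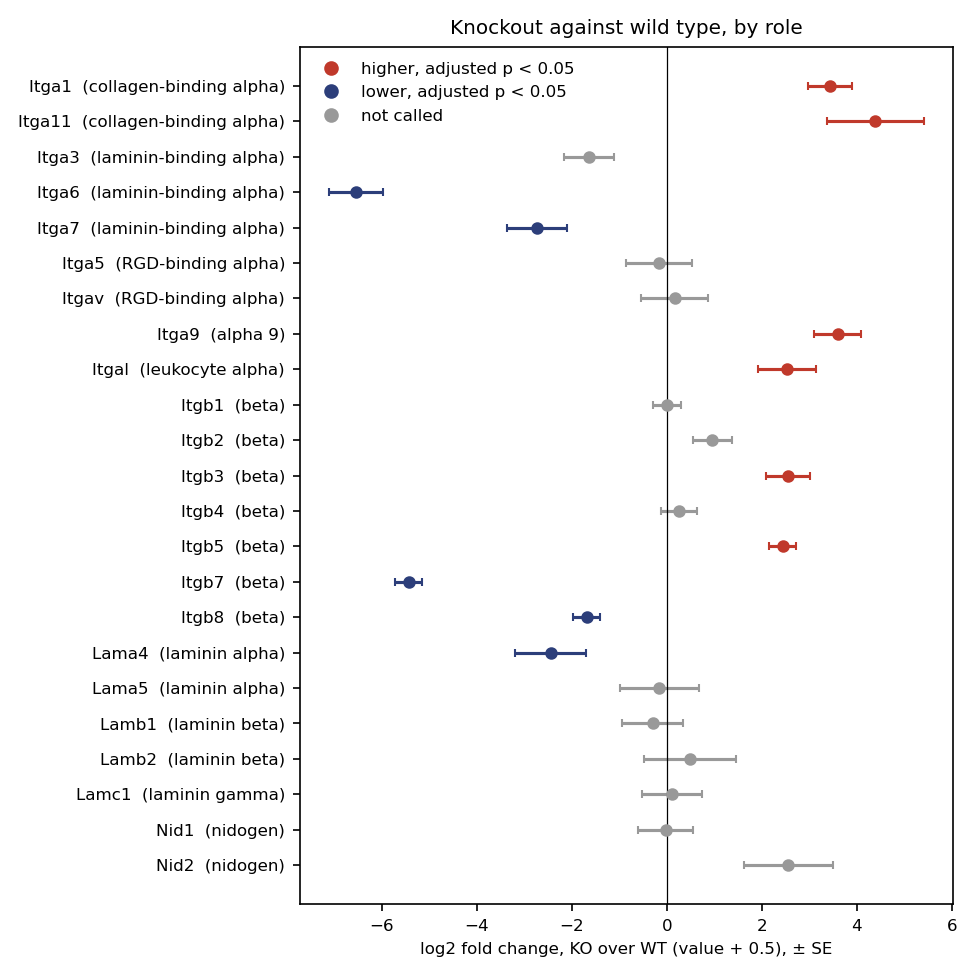
Log2 fold change of KO over WT for the members, ordered by role, with standard error bars from limma (n = 3 KO and 2 WT libraries). Red points passed the adjusted p threshold as higher, blue points as lower and grey points did not pass; the extremes are Itga6 at -6.55 and Itga11 at 4.39.

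The start sites of 14 members matched an entry among RefSeq promoters (GRCm38.p6), 6 of them called members. For 4 of these, the 250 bases upstream of the start site are shown, because they belong to 3 subunits that rose (Itga1, Itga11 and Itgb5) and to 1 that fell (Itgb7). The windows of Itga9 and Itgb8 are not shown, since more than 30 of their bases lie within exons of GENCODE M21. Capitals mark GGGCGG, the GC box of Sp and KLF factors, or its reverse complement. This motif occurs in 32.7% of the 32851 promoter windows on either strand. Searches on both strands for the TATA box (TATAAA, 12.4% of windows), the CCAAT box (CCAAT, 33.8%) and the AP-1 motif (TGANTCA, 6.75%) found no match in these 4 windows. Itgb5 had 3 GC boxes, beginning 199, 63 and 34 bases upstream of the start site, and the other 3 windows held none. GC content was 57.6% for Itga1, 68.4% for Itga11, 65.2% for Itgb5 and 56.0% for Itgb7, against a median of 52.4% over all windows. The sequences run 5′ to 3′ along the gene's strand.
Itga1, chr13:115101965-115102214, minus strand: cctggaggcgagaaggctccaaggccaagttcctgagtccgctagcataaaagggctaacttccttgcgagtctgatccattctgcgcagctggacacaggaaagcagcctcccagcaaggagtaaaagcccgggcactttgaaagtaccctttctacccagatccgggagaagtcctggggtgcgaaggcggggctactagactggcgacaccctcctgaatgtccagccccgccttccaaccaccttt
Itga11, chr9:62677605-62677854, plus strand: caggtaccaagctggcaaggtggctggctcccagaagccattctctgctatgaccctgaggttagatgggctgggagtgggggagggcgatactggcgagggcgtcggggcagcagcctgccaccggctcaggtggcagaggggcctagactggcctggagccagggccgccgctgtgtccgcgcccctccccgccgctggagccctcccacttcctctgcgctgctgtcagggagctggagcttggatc
Itgb5, chr16:33829415-33829664, plus strand: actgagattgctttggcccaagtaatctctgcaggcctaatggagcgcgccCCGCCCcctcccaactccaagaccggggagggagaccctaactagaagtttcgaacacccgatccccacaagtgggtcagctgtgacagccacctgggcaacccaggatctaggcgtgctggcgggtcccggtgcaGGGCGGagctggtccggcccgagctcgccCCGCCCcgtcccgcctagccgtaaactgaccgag
Itgb7, chr15:102231936-102232185, minus strand: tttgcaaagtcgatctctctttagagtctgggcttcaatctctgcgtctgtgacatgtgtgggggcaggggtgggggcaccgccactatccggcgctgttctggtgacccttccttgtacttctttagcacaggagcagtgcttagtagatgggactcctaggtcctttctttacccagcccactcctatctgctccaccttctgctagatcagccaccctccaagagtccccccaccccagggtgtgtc

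Both measured collagen-binding alpha subunits rose in KO cells. Itga1 (chr13:114953096-115101964, minus strand, GRCm38), which pairs with Itgb1 and binds collagen IV and other collagens, had 19.9, 14.8 and 42.1 normalised counts in KO libraries C1, C2 and SE, against 1.54 and 1.86 in WT libraries C1 and SE. Every KO library stood far above both WT libraries. The ratio of means was 15.1, and the log2 fold change was 3.43 ± 0.47 (standard error, adjusted p = 0.00252, limma). Its exons overlap Gm49395 on the same strand, so reads of that gene could not be separated from it. Itga11 (chr9:62677826-62783982, plus strand), a receptor for fibrillar collagen of mesenchymal cells, had 44.6, 17.3 and 186 normalised counts in KO C1, C2 and SE and 0.811 and 4.40 in WT C1 and SE. The SE library was the highest of its genotype in both, and the genotypes did not overlap. The ratio of means was 31.8, with a log2 fold change of 4.39 ± 1.02 (adjusted p = 0.0177), and it was 11.9 without KO SE and 102 without WT SE. Without WT C1 the adjusted p of Itga11 was 0.0906. Together, the collagen-binding alphas made 22.0%, 12.1% and 25.4% of the summed alpha subunit level per kilobase of exon in KO C1, C2 and SE, against 0.47% and 0.803% in WT C1 and SE.

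The laminin-binding alpha subunits went the other way. Itga6 (chr2:71745616-71858416, plus strand), which pairs with Itgb1 or Itgb4 and binds most laminins, had 0.282, 2.31 and 1.07 normalised counts in KO C1, C2 and SE and 113 and 175 in WT C1 and SE. These values rest on 82 reads over the 3 KO libraries and 6173 reads over the 2 WT libraries. The groups were separated by a wide gap, and KO C2 was the highest of the KO libraries. The WT mean was 118 times the KO mean, or 212 times without KO C2, and the log2 fold change was -6.55 ± 0.56 (adjusted p = 0.000399, limma), the lowest among the members. Itga6 was called in each of the 16 other fits that gave a test.

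Itga7 (chr10:128933818-128958282, plus strand), the laminin receptor best known from muscle, had 2.02, 3.82 and 7.09 normalised counts in KO C1, C2 and SE and 15.9 and 50.4 in WT C1 and SE. All KO values were below both WT values. The WT mean was 7.69 times the KO mean (log2 fold change -2.73 ± 0.63, adjusted p = 0.018), 3.68 times without WT SE and 11.7 times without WT C1. Without WT SE its adjusted p was 0.101, and without KO C2 it was 0.0543. Exons of Itga7 overlap Mettl7b on the opposite strand, and no source states if strand was used in counting.

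Itga3, the third laminin-binding alpha, did not pass the threshold. It had 15.0, 14.6 and 43.6 normalised counts in KO C1, C2 and SE, against 52.4 and 87.0 in WT C1 and SE. The KO libraries were all lower, but KO SE came close to WT C1. The log2 fold change was -1.64 ± 0.53 (adjusted p = 0.053, limma). Without KO SE its log2 fold change was -2.15 with an adjusted p of 0.00124, without both SE libraries the adjusted p was 0.0011, DESeq2 gave 0.0234, and a limma fit with the column suffix (C or SE) as a term gave 0.00128. The fit with the suffix as a term passed 60.6% of all genes tested. Per kilobase of exon, Itga6 stood at 0.0119, 0.0997 and 0.0156 of Itga3 in KO C1, C2 and SE, and at 1.36 and 1.28 of Itga3 in WT C1 and SE. Laminin-binding alphas made 6.55%, 9.57% and 5.68% of the summed alpha level per kilobase in KO C1, C2 and SE, against 46.2% and 34.3% in WT C1 and SE.

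Subunits that bind RGD ligands carried most of the alpha subunit level in both genotypes and did not pass the test. Itga5, the fibronectin receptor subunit, had 121, 105 and 403 normalised counts in KO C1, C2 and SE and 112 and 335 in WT C1 and SE (log2 fold change -0.17 ± 0.69, adjusted p = 0.878, limma). Itgav, which pairs with several beta subunits and also activates latent TGF-beta, had 58.0, 40.2 and 210 in KO C1, C2 and SE and 48.4 and 103 in WT C1 and SE (log2 fold change 0.16 ± 0.71, adjusted p = 0.887). The genotypes overlapped for both genes, and the SE library was the highest of its genotype. With the column suffix as a term in the fit, the log2 fold change was 0.12 ± 0.13 for Itga5 (adjusted p = 0.461) and 0.44 ± 0.27 for Itgav (adjusted p = 0.194). Per kilobase, these RGD-binding alphas made 67.4%, 72.7% and 66.7% of the summed alpha level in KO C1, C2 and SE and 53.1% and 64.9% in WT C1 and SE. Exons of Itgav overlap Gm13684 on the opposite strand.

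Itga9 (chr9:118606690-118901003, plus strand), whose product binds tenascin-C, osteopontin and VCAM-1 with Itgb1, rose in KO cells. It had 12.0, 6.89 and 21.9 normalised counts in KO C1, C2 and SE and 0.446 and 0.673 in WT C1 and SE, so that the lowest KO library was well above the highest WT library. The WT values rest on 24 reads. The ratio of means was 24.3, with a log2 fold change of 3.60 ± 0.49 (adjusted p = 0.00248, limma).

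Itgal (chr7:127296260-127335138, plus strand), the alpha subunit of the leukocyte receptor LFA-1, was low throughout and higher in KO cells. It had 28, 177 and 55 reads in KO C1, C2 and SE, or 1.32, 6.70 and 3.94 normalised counts, against 10 and 0 reads in WT C1 and SE, or 0.405 and 0 normalised counts. The ratio of read rates was 18.5 (exact 95% interval 9.92 to 39.1, counting error only), and the log2 fold change was 2.52 ± 0.61 (adjusted p = 0.0202, limma). Without WT C1 the adjusted p was 0.0518, without WT SE it was 0.118 and without both SE libraries it was 0.0584. Its partner Itgb2, the common beta subunit of leukocyte integrins, had 7.43, 16.7 and 11.3 normalised counts in KO C1, C2 and SE and 6.65 and 4.61 in WT C1 and SE. All KO values exceeded the WT values, but the log2 fold change of 0.96 ± 0.41 did not pass (adjusted p = 0.118).

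Of 14 leukocyte markers, 5 had values, with summed levels of 51.1 to 59.9 in KO libraries and 67.3 to 95.2 in WT libraries. Within that sum the genes went in opposite directions: Lyz2, a lysozyme of myeloid cells, lay between 24.4 and 34.2 in KO libraries and between 0 and 0.162 in WT libraries, and Csf1r, the macrophage growth factor receptor, between 3.73 and 9.50 in KO libraries and between 0.0405 and 0.518 in WT libraries. Lyz2 and Csf1r passed the filter on low values through KO libraries only and therefore had to differ. Cd14, a myeloid receptor that stromal cells can also make, lay between 11.3 and 14.0 in KO libraries and between 63.8 and 89.2 in WT libraries. Ptprc, the pan-leukocyte gene, and the leukocyte markers Adgre1, Laptm5, Tyrobp, Cd52, Fcer1g, Cd3e, Cd79a and Ly6g were not analysed here. The part of leukocyte RNA in the values of Itgal and Itgb2 was not tested.

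The beta subunits were led by Itgb1, the partner of most alpha subunits above. It had 1113, 1035 and 1431 normalised counts in KO C1, C2 and SE and 1047 and 1335 in WT C1 and SE. The genotypes overlapped fully, and the log2 fold change was -0.00 ± 0.29 (adjusted p = 0.998, limma).

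Itgb5 (chr16:33829665-33949338, plus strand), which pairs with Itgav as a vitronectin receptor, rose close to that level in KO cells. It had 889, 996 and 1129 normalised counts in KO C1, C2 and SE and 144 and 235 in WT C1 and SE, with tight KO values and no overlap. The ratio of means was 5.30 and the log2 fold change 2.44 ± 0.29 (adjusted p = 0.00141, limma). The 50 genes around Itgb5 had a median log2 fold change of 0.83, and less that median its own value was 1.61. Per kilobase of exon, Itgb5 stood at 0.917, 1.11 and 0.906 of Itgb1 in KO C1, C2 and SE and at 0.158 and 0.202 of Itgb1 in WT C1 and SE.

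Itgb7 (chr15:102215995-102231944, minus strand), best known from lymphocyte receptors that home to the gut, was a main beta subunit of the WT cells. It had 6.11, 3.93 and 5.16 normalised counts in KO C1, C2 and SE and 238 and 237 in WT C1 and SE. The WT mean was 46.9 times the KO mean, and the WT values lay close together (log2 fold change -5.44 ± 0.28, adjusted p = 7.72e-05, limma). Of the beta subunit level summed per kilobase, Itgb7 made 0.418%, 0.262% and 0.275% in KO C1, C2 and SE and 22.3% and 17.8% in WT C1 and SE. Itgb5 made 47.3%, 51.7% and 47.0% of that sum in KO C1, C2 and SE and 10.5% and 13.7% in WT C1 and SE. Itga4 and Itgae, whose products are the known partners of the Itgb7 product, were not analysed here.

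Itgb3 (chr11:104608000-104670476, plus strand), the platelet and osteoclast subunit that also pairs with Itgav, had 3.10, 5.83 and 9.82 normalised counts in KO C1, C2 and SE and 0.486 and 0.622 in WT C1 and SE. Every KO library was higher, at a ratio of means of 11.3 (log2 fold change 2.55 ± 0.47, adjusted p = 0.00753, limma), with 24 reads behind the WT values. Without WT C1 its adjusted p was 0.0525. Of 8 megakaryocyte and platelet markers only Itga2b had a value, 6.77 to 7.42 in KO libraries and 7.21 to 11.9 in WT libraries.

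Itgb8 (chr12:119158022-119238802, minus strand), a partner of Itgav that activates TGF-beta, had 1, 0 and 3 reads in KO C1, C2 and SE and 42 and 21 reads in WT C1 and SE. It was thus at the limit of detection in KO cells and low in WT cells, at 1.70 and 1.09 normalised counts in C1 and SE. The WT read rate was 22.1 times the KO rate (exact 95% interval 8.21 to 83.5, counting error only), and the log2 fold change was -1.69 ± 0.29 (adjusted p = 0.00594, limma). Itgb4, the Itga6 partner of hemidesmosomes, had 2.45, 3.25 and 4.87 normalised counts in KO C1, C2 and SE and 2.23 and 3.42 in WT C1 and SE (log2 fold change 0.25 ± 0.37, adjusted p = 0.634). The genotypes overlapped for Itgb4, and its exons overlap B230344G16Rik on the opposite strand.

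Marker lists of other cell types differed between genotypes, not all in 1 direction. Of 10 mural cell markers, 7 had values, with summed levels of 3105 to 6606 in KO libraries and 53.2 to 67.1 in WT libraries, mostly Acta2, the smooth muscle actin. Of 12 epithelial markers, 3 had values, summing to 6.81 to 12.5 in KO libraries and 22.8 to 44.6 in WT libraries, while Epcam and Cdh1 were not analysed here. Within that sum Krt18 and Krt19 fell, and Krt7 rose, at 3.37 to 6.82 in KO libraries and 0 to 0.259 in WT libraries. Krt18 passed the filter on low values through WT libraries only and Krt7 through KO libraries only, so both had to differ. Schwann cell markers (3 of 8 with values) summed to 9.83 to 12.7 in KO libraries and 1.86 to 2.72 in WT libraries, and Sox10 was not analysed here. Endothelial markers (3 of 12 with values) summed to 0.517 to 3.87 in KO libraries and 3.88 to 5.47 in WT libraries, and Pecam1 and Cdh5 were not analysed here. Of these, Flt1 and Erg fell, whereas Vwf lay at 0.376 to 3.80 in KO libraries and 0 to 0.0405 in WT libraries and did not pass (adjusted p = 0.0653, limma). Flt1 and Erg passed the filter on low values through WT libraries only and therefore had to differ. Vwf passed that filter through KO libraries only. The part of such cells in the differences of Itga1, Itga6, Itga7 and Itga9 was not tested.

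Among the laminin chains, Lama4 was the sole call. Lama4 (chr10:38965515-39110188, plus strand), the alpha chain of vascular and mesenchymal laminins, had 28, 1 and 21 reads in KO C1, C2 and SE, or 1.32, 0.0378 and 1.50 normalised counts. In WT C1 and SE it had 78 and 235 reads, or 3.16 and 12.2 normalised counts. All KO values were below the WT values, KO C2 by far the lowest and WT SE by far the highest. The WT mean was 8.04 times the KO mean (log2 fold change -2.44 ± 0.74, adjusted p = 0.0446, limma). This call was among the least firm: it held in 10 of 15 other fits, the ratio was 3.32 without WT SE (adjusted p = 0.236) and 12.8 without WT C1, and the adjusted p was 0.09 without KO C2, 0.0646 without both SE libraries, 0.077 with a pseudocount of 0.1 and 0.073 with edgeR. The 50 genes around Lama4 had a median log2 fold change of 1.53, in the direction opposite to Lama4.

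Lama5, the alpha chain of most adult basement membranes, had 4.89, 5.11 and 33.5 normalised counts in KO C1, C2 and SE and 8.59 and 13.5 in WT C1 and SE (log2 fold change -0.16 ± 0.82, adjusted p = 0.905, limma). The C libraries of KO lay below WT and the SE library of KO above it, and without KO SE the log2 fold change was -1.04 with an adjusted p of 0.0473. Lamb1, the common beta chain, had 62.0, 75.6 and 211 in KO C1, C2 and SE and 71.3 and 212 in WT C1 and SE (log2 fold change -0.30 ± 0.65, adjusted p = 0.754). Lamb2, the beta chain of muscle, vessel and kidney laminins, had 48.2, 67.0 and 349 in KO C1, C2 and SE and 34.2 and 160 in WT C1 and SE (log2 fold change 0.49 ± 0.97, adjusted p = 0.734). KO over WT for Lamb2 was 1.69 within the C libraries and 2.18 within the SE libraries. With the suffix as a term Lamb2 passed (0.90 ± 0.18, adjusted p = 0.00527, limma), as did 60.6% of all genes tested. For Lamb1 and Lamb2 the genotypes overlapped, and each SE library stood several-fold above the C libraries of its own genotype.

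Lamc1, the gamma chain of most laminins, had 74.2, 117 and 281 normalised counts in KO C1, C2 and SE and 76.0 and 204 in WT C1 and SE (log2 fold change 0.11 ± 0.64, adjusted p = 0.913, limma). The genotypes overlapped for Lamc1, and the SE library was the highest of each. Per kilobase of exon, Lamb2 stood at 1.27, 1.45 and 2.71 of Lamb1 in KO C1, C2 and SE and at 0.781 and 1.23 of Lamb1 in WT C1 and SE.

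The nidogens parted from each other. Nid1 had 260, 246 and 795 normalised counts in KO C1, C2 and SE and 269 and 528 in WT C1 and SE (log2 fold change -0.03 ± 0.58, adjusted p = 0.979, limma), with overlapping genotypes. Nid2, its paralog, had 85.9, 31.8 and 294 in KO C1, C2 and SE and 8.27 and 28.6 in WT C1 and SE. Its lowest KO library was just above its highest WT library, and the log2 fold change of 2.55 ± 0.94 did not pass (adjusted p = 0.0784). The ratio of means was 7.45, and it was 3.19 without KO SE and 16.6 without WT SE. Nid2 did pass without KO C2 (adjusted p = 0.0332), without both SE libraries (0.00377), with DESeq2 (0.00144) and with the suffix as a term (0.00113). With the suffix as a term, 60.6% of all genes tested passed. KO over WT for Nid2 was 7.12 within the C libraries and 10.3 within the SE libraries. Per kilobase, Nid2 stood at 0.444, 0.173 and 0.497 of Nid1 in KO C1, C2 and SE and at 0.0412 and 0.0726 of Nid1 in WT C1 and SE. Exons of Nid1 overlap Gm48682 and exons of Nid2 overlap Rtraf, each on the opposite strand.

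**Figure D3:**
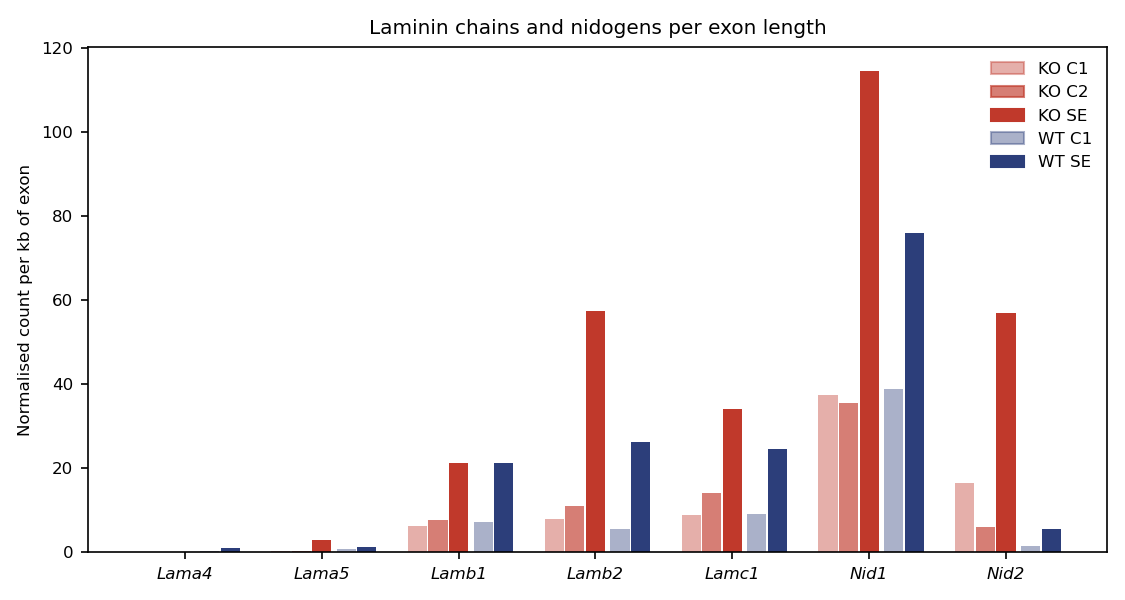
Normalised count per kilobase of exon for the laminin chains and nidogens in each library, as bars from 0, with KO libraries in reds and WT libraries in blues. For Lamb1, Lamb2, Lamc1, Nid1 and Nid2 the SE bar is the tallest of its own genotype, and Nid2 is visible mainly in KO cells.

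Set out as receptors, 22 heterodimers of the member subunits were considered, and 13 had both subunits in the table. The alpha subunit alone passed the test in 7 of these (Itga1, Itga11, Itga6, Itga7 and Itga9 with Itgb1, Itga6 with Itgb4, and Itgal with Itgb2). The beta subunit alone passed in 3 (Itgav with Itgb3, Itgb5 or Itgb8), and neither subunit in 3 (Itga3, Itga5 and Itgav with Itgb1). Since Itgb1 and Itgav serve several pairs, these pairs are not independent of each other. Of 14 laminin trimers considered, 4 had all chains in the table (Lama4 or Lama5 with Lamb1 or Lamb2 and with Lamc1).

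Ligand transcripts were then set beside their receptors. Beside Itga1 and Itga11, the fibrillar collagen chain Col1a1 had 882, 506 and 12333 normalised counts in KO C1, C2 and SE and 5.55 and 56.1 in WT C1 and SE (log2 fold change 6.58 ± 1.49, adjusted p = 0.0166, limma). Its ratio of means was 148, and it was 22.5 without KO SE and 824 without WT SE. Col1a2 had a log2 fold change of 5.43 ± 0.82 (adjusted p = 0.00355) and a ratio of 47.8, or 21.8 without KO SE and 108 without WT SE. Col6a1 had a log2 fold change of 2.28 ± 0.51 (adjusted p = 0.0153) and a ratio of 4.74, or 7.94 without WT SE. The basement membrane collagens Col4a1 (1.84 ± 1.00, adjusted p = 0.199) and Col4a2 (0.84 ± 0.91, adjusted p = 0.518) and the fibrillar Col3a1 (-1.48 ± 0.83, adjusted p = 0.211) did not pass.

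Beside the laminin-binding alphas that fell, the sole laminin chain to fall was Lama4, while Lama5, Lamb1, Lamb2 and Lamc1 did not pass. Fn1, the fibronectin ligand of Itga5, averaged 934 ± 1115 normalised counts in KO libraries (SD, n = 3) and 637 ± 421 in WT libraries (SD, n = 2), with a log2 fold change of 0.02 ± 0.96 (adjusted p = 0.99, limma). Among other ligands with the RGD motif or for Itgav, Spp1 (-0.14 ± 0.61, adjusted p = 0.886), Thbs1 (2.20 ± 0.95, 0.121), Mfge8 (0.16 ± 0.25, 0.668) and Tgfb1 (0.01 ± 0.36, 0.988) did not pass. Not all such ligands failed the test: Edil3 fell and Postn rose, as given below. Tnc, which encodes the Itga9 ligand tenascin-C, went opposite to its receptor, with 2.26, 0.984 and 12.9 normalised counts in KO C1, C2 and SE and 49.9 and 303 in WT C1 and SE (log2 fold change -5.03 ± 1.08, adjusted p = 0.0138). The WT mean of Tnc was 32.8 times the KO mean, 9.27 times without WT SE and 109 times without KO SE. Vcam1, another Itga9 ligand, had a log2 fold change of 0.84 ± 0.30 and did not pass (adjusted p = 0.0728).

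**Figure D4:**
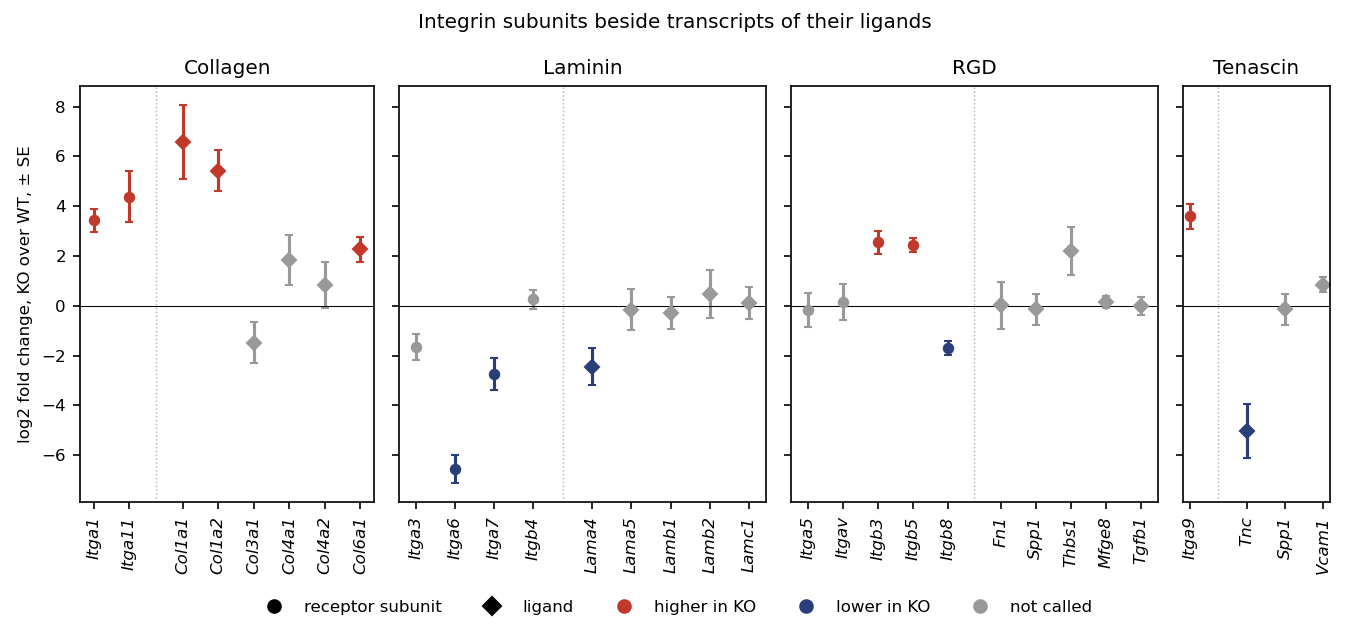
Log2 fold change of KO over WT, with standard errors, for integrin subunits (circles) and transcripts of their ligands (diamonds), in panels for collagen, laminin, RGD and tenascin receptors. Red marks genes called higher in KO, blue genes called lower and grey genes not called. Receptor and ligand calls share a direction in the collagen panel, and Itga9 and Tnc have opposite ones. The RGD panel leaves out ligands that were called, such as Edil3 and Postn.

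A list of 31 other integrin ligands had 24 tested genes, with a median log2 fold change of 0.70. Of these, 8 rose and 4 fell, against 17.2% and 17.1% of all genes tested. Among these calls, Postn passed the filter on low values through KO libraries only and Tgfbi through WT libraries only. Both therefore had to differ, and the counts include them. Without WT C1 there were 4 higher and 2 lower, without WT SE 2 lower and without KO SE 7 lower. The smallest p-values belonged to Tgfbi, Edil3, Postn, F11r, Ctgf and Col1a2. Tgfbi, a matrix protein bound by several integrins, lay between 0.0378 and 0.517 normalised counts in KO libraries and between 331 and 332 in WT libraries (log2 fold change -8.74 ± 0.36, adjusted p = 5.28e-05, limma). Edil3, an RGD ligand of Itgav receptors, lay between 0.717 and 1.36 in KO libraries and between 30.9 and 33.2 in WT libraries. Postn, the Itgav ligand periostin, had 45.1, 23.3 and 90.9 in KO C1, C2 and SE and no read in WT libraries. F11r, an LFA-1 ligand, rose by 3.60 ± 0.32 and Ctgf, a matricellular ligand, by 2.90 ± 0.40 on the log2 scale (adjusted p = 0.000455 and 0.00241).

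Of 29 basement membrane partners, 22 were tested, with a median log2 fold change of 0.82. Of these, 7 rose and 4 fell, against 17.2% and 17.1% of all genes tested. Among these calls, Smoc1 passed the filter on low values through KO libraries only and Col4a6 through WT libraries only. Both therefore had to differ, and the counts include them. Without WT C1, and likewise without WT SE, 4 were higher and 2 lower. Fbln1, a laminin- and nidogen-binding fibulin, lay between 174 and 215 normalised counts in KO libraries and between 5.19 and 5.28 in WT libraries (log2 fold change 5.07 ± 0.22, adjusted p = 5.92e-05, limma). Smoc1, a secreted calcium-binding protein of basement membranes, lay between 26.3 and 64.9 in KO libraries and between 0.0518 and 0.365 in WT libraries. Col4a6, a collagen IV chain, had no read in KO libraries and 3.04 and 4.77 normalised counts in WT C1 and SE. Ntn4, a netrin that binds laminin gamma chains, fell by 3.61 ± 0.40 on the log2 scale (adjusted p = 0.00104). Sgce, of the sarcoglycan family (1.73 ± 0.23, adjusted p = 0.0022), and Bcam, a receptor for Lama5 (1.63 ± 0.28, adjusted p = 0.00624), rose.

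A list of adhesion adaptors held 46 genes, among them proteins that couple integrin tails to actin and signalling proteins such as Src. Of the 46, 40 were tested, of which 9 rose and 0 fell with limma, at a median log2 fold change of 0.15. At an unadjusted p below 0.05, 11 were higher and 2 lower. DESeq2 called 12 higher and 1 lower, edgeR 8 higher and 0 lower, and the fit without both SE libraries 11 higher and 3 lower. Without WT C1, and likewise without WT SE, 4 were higher, without KO C2 5 were higher, and without KO SE 3 were lower. Of genes linked to the ILK complex, Lims2 (4.25 ± 0.35), Lims1 (1.42 ± 0.21) and Rsu1 (1.38 ± 0.34) rose, as did the focal adhesion proteins Lasp1 (1.50 ± 0.26) and Tgfb1i1 (1.14 ± 0.20), with adjusted p-values between 0.000356 and 0.022 (limma). The ILK-binding parvins Parva (0.14 ± 0.21, adjusted p = 0.653) and Parvb (0.02 ± 0.29, adjusted p = 0.959) did not pass. The main limma counts of the adaptors and of the other lists stand against the 17.2% of genes higher and 17.1% lower in the whole table. The lists were chosen with earlier results of these data known.

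Between SE and C libraries, laminin chains, nidogens and several alpha subunits differed. In a limma fit with genotype and suffix as terms, 11 members were higher in SE than in C libraries and 0 lower, against a background of 17.4% of genes higher and 15.5% lower. At an unadjusted p below 0.05, 15 members were higher and 1 lower, and edgeR called 12 higher and 0 lower, DESeq2 13 higher and 1 lower. The 11 members are 5 of 9 alpha subunits (Itga3, Itga5, Itga7, Itga11 and Itgav), 4 of 6 laminin chains (Lama5, Lamb1, Lamb2 and Lamc1) and both nidogens. The median log2 difference of SE over C was 1.01 over the members and -0.04 over all genes tested. Without KO SE, which leaves WT SE as the sole SE library, no gene of the table passed with limma, although 1889 genes and 7 members had an unadjusted p below 0.05. The log2 differences of the 11 members were then still positive, from 0.62 for Lama5 to 2.21 for Lamb2, with 1.57 for Itga5 and 1.56 for Lamb1 (adjusted p between 0.325 and 0.369).

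Lamb2 showed the highest value of SE over C, with a log2 fold change of 2.44 ± 0.18 (adjusted p = 0.00316, limma). Its SE library was 6.06 times the C mean within KO and 4.69 times within WT. Itga11 (2.37 ± 0.42), Nid2 (2.16 ± 0.41), Lama5 (1.77 ± 0.44) and Itga5 (1.72 ± 0.13) followed. The remaining calls lay between 1.18 ± 0.21 for Itga3 and 1.67 ± 0.27 for Itgav, with Lamb1 at 1.59 ± 0.13, Lamc1 at 1.51 ± 0.20, Itga7 at 1.39 ± 0.30 and Nid1 at 1.36 ± 0.17. The SE over C call of Itga7 was lost without WT C1 (adjusted p = 0.0834) and without WT SE (0.0927).

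The SE library stood above every C library of its genotype in both KO and WT for 18 of 24 members, or 75%, against 33.1% of all genes tested. Basement membrane and matrix genes of the ligand lists that were called for SE over C included Col4a1 at 2.48, Col4a2 at 2.30 and Fn1 at 2.31 on the log2 scale (adjusted p = 0.00348, 0.00316 and 0.00571). Itga11 and Itga7 were called in both comparisons, 4 members in neither (among them Itgb1, Itgb2 and Itgb4), and 5.65% of all genes in both. The genotypes did not overlap for any member called for KO against WT. Its direction therefore had to be the same within the C libraries and within the SE libraries. What C and SE stand for is not stated, so the difference between them cannot be named.

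**Figure D5:**
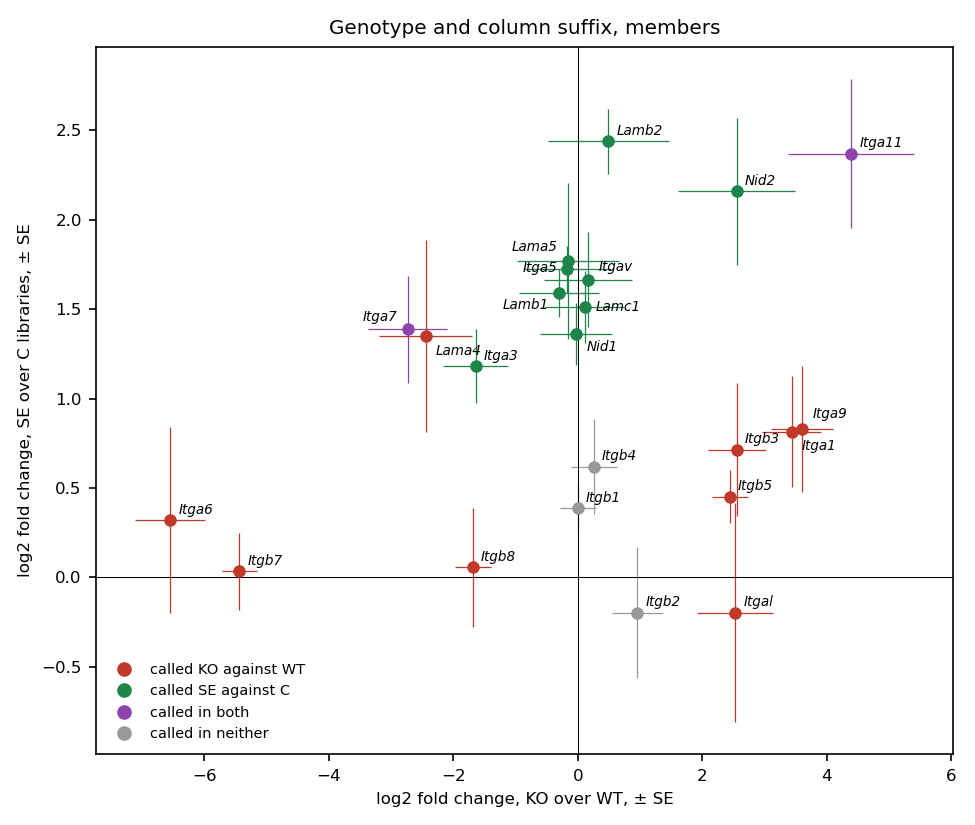
Members by their log2 fold change of KO over WT (horizontal axis) and of SE over C libraries (vertical axis), with standard errors from limma. Red points were called for genotype, green for suffix, purple for both (Itga7 and Itga11) and grey for neither. Lama5, Lamb1, Lamb2, Lamc1 and Nid1 gather high near the vertical line at 0, while Nid2 lies to its right and Lama4 to its left. Itga6 and Itgb7 lie far left near the horizontal line at 0.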

How the data were processed

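Polyadenylated RNA of mesenchymal stem cells was sequenced as single reads of 75 bases with a strand-marking kit, per the labels' protocols. The submitters' processing notes name STAR 2.5, edgeR and featureCounts 1.5.2, giving no role or order; build, annotation and strand setting are not given in the sources used here. The deposited values are a signal: gene counts divided by a scaled library size by the authors, on the scale of CPM. Dividing by the value of 1 read returned whole numbers, to a tolerance of 0.02, for 100% of values.

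Columns were placed by genotype (3 KO, 2 WT), with 0 value columns unplaced. Log2 of the value plus 0.5 was fitted with limma 3.58.1 (eBayes with a trend, group only, 3 residual degrees of freedom) over the 12484 genes that reached 1 in 2 or more libraries, with Benjamini-Hochberg adjustment and a threshold of 0.05. Fold changes are on that scale, which understates changes of low genes, and ratios are of group means of deposited values. The SE over C fit has group and suffix as terms (2 residual degrees of freedom) and was added after the data were seen. The fits were tested on simulated counts that held no difference between SE and C libraries. That test therefore cannot show how the fits behave with the SE and C difference of these data.

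Levels per kilobase use exon lengths of GENCODE M21 (GRCm38), matched by Ensembl identifier for 12612 genes. Intervals are exact at 95%. Alternatives used edgeR 4.0.16 and DESeq2 1.42.0 on recovered reads, other scalings, pseudocounts of 0.1 and 1, no filter or a filter at 5, eBayes without a trend, the median of 50 neighbouring genes, a suffix block and left-out libraries. The rule names every member and, of each list, the 6 genes with the smallest p and ligands of the receptors; some genes that it takes, 1 member among them, are counted but not reported singly here, and Nt5e, Parva, Parvb and the markers given singly were chosen after their values were seen. Members and lists were chosen with earlier results of these data known. Calculations used R 4.3.3 and Python 3.11.15.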

Additional observations from a re-analysis of the deposited data

Results flagged for a closer look

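The ratios of KO to WT for Lama5 and Nid1 lay below 1 within the C libraries and above 1 within the SE libraries. Lama5 in KO was 0.582 of WT within the C libraries and 2.49 times WT within the SE libraries. Nid1 in KO was 0.94 of WT within the C libraries, which is close to no difference, and 1.50 times WT within the SE libraries. Each SE ratio compares 1 library with 1 library, and the difference between the ratios was not tested.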

How the results depend on the processing

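The calls of Itga1, Itga6, Itga9, Itgb5, Itgb7 and Itgb8 held in every alternative that gave them a test, and those lost elsewhere are given with the genes above. Itga9 and Itgb8 passed the filter on low values through 1 genotype only and had to differ, so this does not make their calls firm. Directions reversed only for members that did not pass, and the cause was not tested. With median-of-ratios scaling, the log2 fold change of KO over WT was 0.058 for Itgb1 and 0.034 for Nid1. With edgeR it was 0.0058 for Itgb1, 0.39 for Lama5 and 0.12 for Nid1, and with DESeq2 0.059 for Itgb1, 0.42 for Lama5 and 0.16 for Nid1. Without both SE libraries it was 0.0066 for Itga5, -0.0048 for Itgav and 0.036 for Itgb1. Less the median of 50 neighbouring genes, it was 0.19 for Itga5, -0.23 for Lamc1, 0.54 for Nid1 and 0.28 for Itgb1.

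Leaving out single libraries gave log2 fold changes of -0.95 to 0.62 for Itga5, -0.54 to 0.70 for Itgav, -0.18 to 0.17 for Itgb1, -0.0063 to 0.52 for Itgb4, -1.04 to 0.29 for Lama5, -1.08 to 0.48 for Lamb1, -0.62 to 1.60 for Lamb2, -0.59 to 0.82 for Lamc1 and -0.58 to 0.46 for Nid1. Without single libraries, 3 to 7 members were higher and 2 to 7 lower in KO. The same refits gave 4 to 9 adaptors higher and 0 to 3 lower, 4 to 8 basement membrane partners higher and 2 to 4 lower, and 4 to 8 ligands higher and 2 to 7 lower. Between SE and C, they gave 0 to 13 members higher and 0 to 1 lower. The share of all genes called moved with the library left out as well. Where a refit leaves 1 WT library, that library is assumed to vary like the others.

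A filter at 5 kept 20 members, of which 3 were lower, and left Itgal, Itgb4, Itgb8 and Lama4 without a value. Itgb8 also had none without WT C1, without WT SE or without both SE libraries, where it missed the filter. Adaptors called lower numbered 1 with DESeq2 and 3 without both SE libraries. SE over C called 1 member lower with DESeq2, with quantile normalization and with median-of-ratios scaling.

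The titles' replicate numbers could not be placed on columns, so the replicate block used the suffix, which the libraries share as a name only. Deviations from the group mean correlated at 0.753 between KO SE and WT SE, 0.646 between KO C1 and WT C1 and 0.447 between KO C2 and WT C1. With this block, 8 members were higher and 6 lower, and Itga3 (adjusted p = 0.00128), Lamb2 (0.00527) and Nid2 (0.00113) passed in addition. The block called 16 adaptors higher and 3 lower, 12 basement membrane partners higher and 7 ligands lower, and gave log2 fold changes of 0.12 for Itga5, 0.063 for Itgb1, 0.14 for Lama5 and 0.20 for Nid1. With the block 60.6% of all genes passed, against 34.3% without it.

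Few reads limit Itgal, Itgb8, Lama4 and the lower group of Itga6, Itga9 and Itgb3, and 2 WT libraries limit every comparison.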
